A study of Homo sapiens with 3 samples.

Results

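Ubiquitin-specific proteases (USPs) form the largest family of deubiquitinases, the enzymes that take ubiquitin off proteins. This account covers the USP genes measured in AsPC-1, a human pancreatic cancer cell line, after knockdown of the long non-coding RNA LINC00941. A gene was included when it was protein-coding and its symbol was USP followed by a number, with or without an X, which gave 43 genes of the 16463 listed and of the 12548 protein-coding genes listed. RefSeq holds 50 protein-coding genes with such symbols, and the other 7 (USP2, USP6, USP26, USP29, USP44, USP50 and USP51) were not analysed here. USP17-like genes, USP pseudogenes and antisense RNAs fall outside the rule and are given separately.

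Ubiquitin is a small protein that is attached to other proteins, alone or as chains, and marks them for the proteasome, for sorting through endosomes or for a change of activity. USPs are cysteine proteases that reverse this mark, and each is steered to its substrates by domains outside the catalytic core and by partner proteins. In cancer cells, USPs are known for acting on p53 and its ligase MDM2, on MYC, on growth factor receptors, on the receptors and SMADs of TGF-beta signaling and on ubiquitinated histones. The values below are levels of RNA and say nothing of the amount or activity of the enzymes.

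To look for downstream targets of LINC00941, wild-type AsPC-1 cells were transfected with a non-targeting control siRNA (siNC) or with 1 of 2 siRNAs against LINC00941 (si#1 and si#2), each at 200 nM. Total RNA was taken 24 h later (day 1), depleted of ribosomal RNA and sequenced, with 1 library per condition. There was no replicate check, so no p-value is given for the difference of either siRNA from siNC, the spread between cultures is unknown, and the 1 siNC library served as control for both siRNAs. A gene was called at a 2-fold difference from siNC, a log2 fold change of at least 1 either way, on quantile-normalized log2(read count + 1). The interval after a log2 fold change is an exact 95% Clopper-Pearson interval from the read counts, which covers counting error only. Where read counts come in threes without labels they are those of siNC, si#1 and si#2 in that order, and paired log2 fold changes are those with si#1 and then si#2.

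Reads in listed genes came to 88690997 (siNC), 92510692 (si#1) and 90867405 (si#2), of which the top 10 genes held 10.5%, 11.6% and 12.7%. The reads of LINC00941 numbered 1551 (siNC), 214 (si#1) and 273 (si#2), so the targeted RNA was at 0.135 and 0.169 times its siNC level. The epithelial markers EPCAM, CDH1, KRT8, KRT18 and KRT19 were listed in each library, as were the mesenchymal genes VIM (232296 reads in siNC) and ZEB1 (4325), whereas CDH2 and TWIST1 were not listed. The 4 acinar and 3 endocrine markers, PTPRC and CD3E of leukocytes and PECAM1 of endothelium were not listed either, while CD68, a macrophage marker, had 2663, 2819 and 2503 reads and the endothelial gene VWF had 26, 25 and 20.

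First, promoter sequences of 3 USP genes past 2-fold are shown. The study that made these libraries mutated an ETS-1 consensus, CGGAA, and an ELK-1 consensus in the LINC00941 promoter. Only the ETS-1 mutation significantly lowered the activity of that promoter. The study assayed no USP promoter and gave no link between CGGAA and the changes after LINC00941 knockdown. The sequences are the 250 bases before the RefSeq start of each gene (GRCh38.p14), written 5′ to 3′ on the strand of the gene. Capitals mark CGGAA and GGGCGG, a GC box of the kind bound by SP1, on either strand. USP46 and USP12 are close relatives and had the lowest values with si#2 among USP genes averaging 100 reads or more, and USP27X was the one USP gene 2-fold higher than siNC. USP46 lies on the minus strand (chr4:52659302-52659551), USP12 on the minus strand (chr13:27171812-27172061) and USP27X on the plus strand (chrX:49879234-49879483).
USP46: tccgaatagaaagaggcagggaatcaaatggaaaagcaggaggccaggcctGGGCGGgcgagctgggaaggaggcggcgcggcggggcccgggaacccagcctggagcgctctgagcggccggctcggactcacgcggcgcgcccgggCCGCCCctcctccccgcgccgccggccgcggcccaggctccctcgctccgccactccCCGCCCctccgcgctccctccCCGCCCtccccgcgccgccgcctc
USP12: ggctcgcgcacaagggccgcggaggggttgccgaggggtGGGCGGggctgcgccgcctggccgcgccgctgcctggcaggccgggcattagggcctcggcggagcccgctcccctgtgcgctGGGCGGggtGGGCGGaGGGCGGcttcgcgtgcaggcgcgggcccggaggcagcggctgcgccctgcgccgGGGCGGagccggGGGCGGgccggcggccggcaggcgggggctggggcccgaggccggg
USP27X: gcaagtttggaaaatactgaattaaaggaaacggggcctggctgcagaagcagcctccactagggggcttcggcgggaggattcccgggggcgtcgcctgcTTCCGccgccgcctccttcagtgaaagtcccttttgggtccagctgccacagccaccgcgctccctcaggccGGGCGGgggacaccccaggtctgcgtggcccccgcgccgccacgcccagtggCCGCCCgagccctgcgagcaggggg
The USP46 window is 78.0% G and C with 34 CpG dinucleotides, and holds GGGCGG 1 time on the plus strand of the gene and 3 times on the other. The USP12 window is 84.8% G and C with 37 CpG dinucleotides and holds 6 copies of GGGCGG, all on the plus strand of the gene. Neither of these windows holds CGGAA, nor does that of USP14, whereas the USP34 window, not printed, holds 2 copies and the USP49 window 1. The USP27X window is 69.2% G and C with 21 CpG dinucleotides, and holds 1 copy of CGGAA on the other strand and 1 copy of GGGCGG on each strand. A window at the gene's own 5′ end could be had for 30 of the 43 USP genes and for 8980 of the 12548 listed protein-coding genes. CGGAA was found in 13 of the 30 USP windows (43.3%), near the 47.9% of all 8980. GGGCGG was found in 24 of 30 (80%) against 67.5%, and the median G and C content was 70.4% against 64.8%. These matches describe the letters of the windows, and no binding was measured.

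USP RNA spanned a wide range of levels in control cells. TPM, a level corrected for transcript length and library depth, ran from 0.183 (USP49) to 98.3 (USP7) in siNC, and 23 genes had 10 TPM or more and 2 (USP27X and USP49) less than 1. USP7, which acts on MDM2 and p53, had the highest level, with 98.3 TPM in siNC, 85.1 with si#1 and 68.5 with si#2. It was followed in siNC by USP5 (55.8 TPM), which takes apart unanchored ubiquitin chains, USP22 (54.1 TPM), the deubiquitinase of the SAGA coactivator complex, USP1 (44.4 TPM), which acts on FANCD2 and PCNA, and USP10 (41.0 TPM), which acts on p53 in the cytoplasm. USP5 and USP22 are close in this order, as are USP1 and USP10, and with 1 siNC library the order of neighbours was not tested. Together the 43 genes took 0.330% (siNC), 0.276% (si#1) and 0.257% (si#2) of all reads. Their summed level was 836.9, 701.8 and 616.6 TPM in the same order. Unnormalized TPM of the median gene was also lower with the siRNAs, although TPM summed to nearly the same total in each library. The median log2 ratio was -0.09 (si#1) and -0.17 (si#2) over genes averaging 100 reads or more. The median USP gene was at -0.24 and -0.47 on that scale. The median read count of a USP gene was 4490 in siNC, and 42 of the 43 had a mean of at least 100 reads, so counting error was largest for USP27X and USP49.

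**Figure D1:**
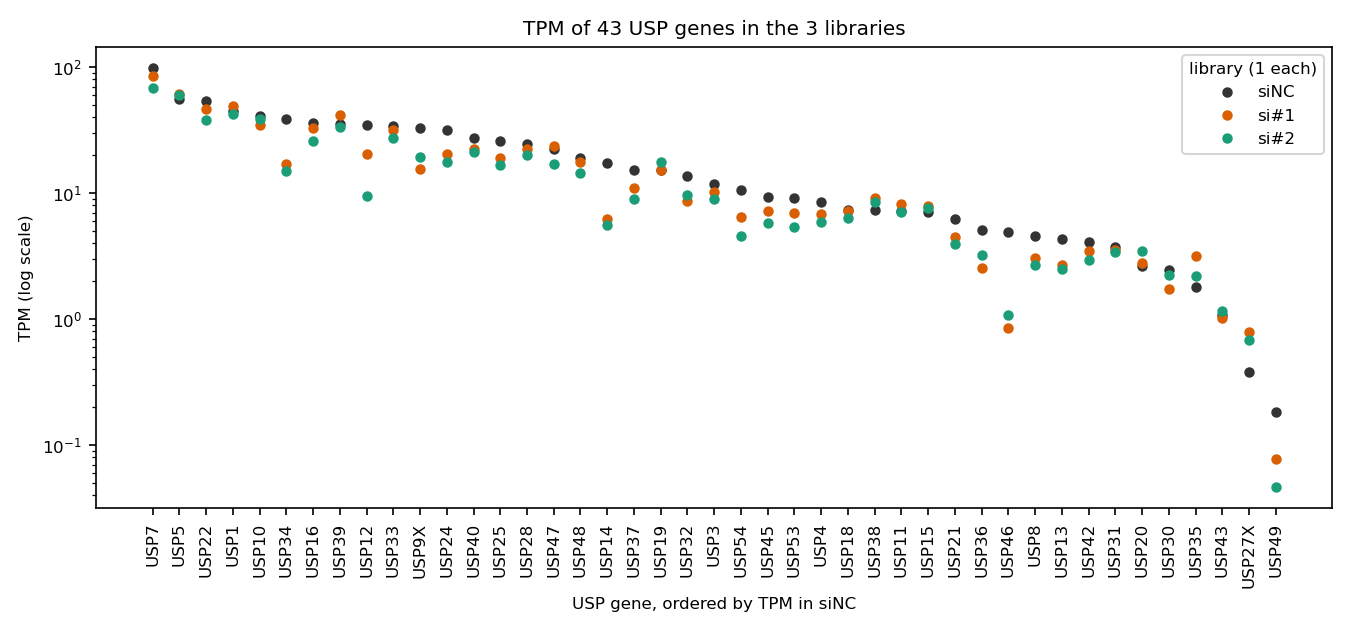
TPM (vertical log axis) of the 43 USP genes (horizontal axis, ordered by siNC), with 1 point per library for siNC, si#1 and si#2. The points of most genes lie close together, while those of some spread, among them USP46, USP49, USP12, USP14 and USP34. USP46 ran from 4.94 TPM in siNC to 0.849 with si#1, and USP49 from 0.183 in siNC to 0.046 with si#2.

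Most USP genes, 36 of 43, stayed within 2-fold of siNC with both siRNAs, and more of the rest were lower than higher. With si#1, 4 of 43 USP genes (9.3%) were 2-fold lower and 1 (2.33%) 2-fold higher, beside 6.8% and 5.22% of all listed genes and 4.38% and 3.91% of protein-coding genes. With si#2, 6 (14%) were 2-fold lower and 1 (2.33%) higher, beside 7.17% and 5.49% of all listed genes and 5.16% and 4.3% of protein-coding genes. With both siRNAs, USP46, USP14, USP34 and USP49 were 2-fold lower (9.3%, beside 3.51% of all listed and 2.44% of protein-coding genes), and USP27X was 2-fold higher (2.33%, beside 2.53% and 2.18%). Among protein-coding genes averaging 100 reads or more, which leaves out USP49, 1.99% were 2-fold lower and 1.04% 2-fold higher with both. The share lower with both was above each of these backgrounds and the share higher was near that of all listed and of protein-coding genes, with no test of either. Counted in either direction with at least 1 siRNA, the 7 USP genes (16.3%) lay near the background of 18.5% of all listed genes and 13% of protein-coding genes.

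Smaller differences leaned the same way. The median log2 fold change of the 43 genes was -0.09 with si#1 and -0.24 with si#2, beside 0.03 and 0.02 over all listed genes and 0.06 and 0.05 over protein-coding genes. Below 0 were 28 USP genes (65.1%) with si#1 and 29 (67.4%) with si#2, beside 43.8% and 45.2% of protein-coding genes. In all, 26 USP genes lay below siNC with both siRNAs, 12 above with both and 5 on opposite sides. The share past 1.5-fold, 10 genes (23.3%) with each siRNA, was near the 22.5% and 26.6% of protein-coding genes, and 30 USP genes stayed within 1.5-fold with both siRNAs. The counting interval left out no change in 38 genes with si#1 and in 40 with si#2. Such an interval says only that 2 libraries differ by more than counting error.

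**Figure D2:**
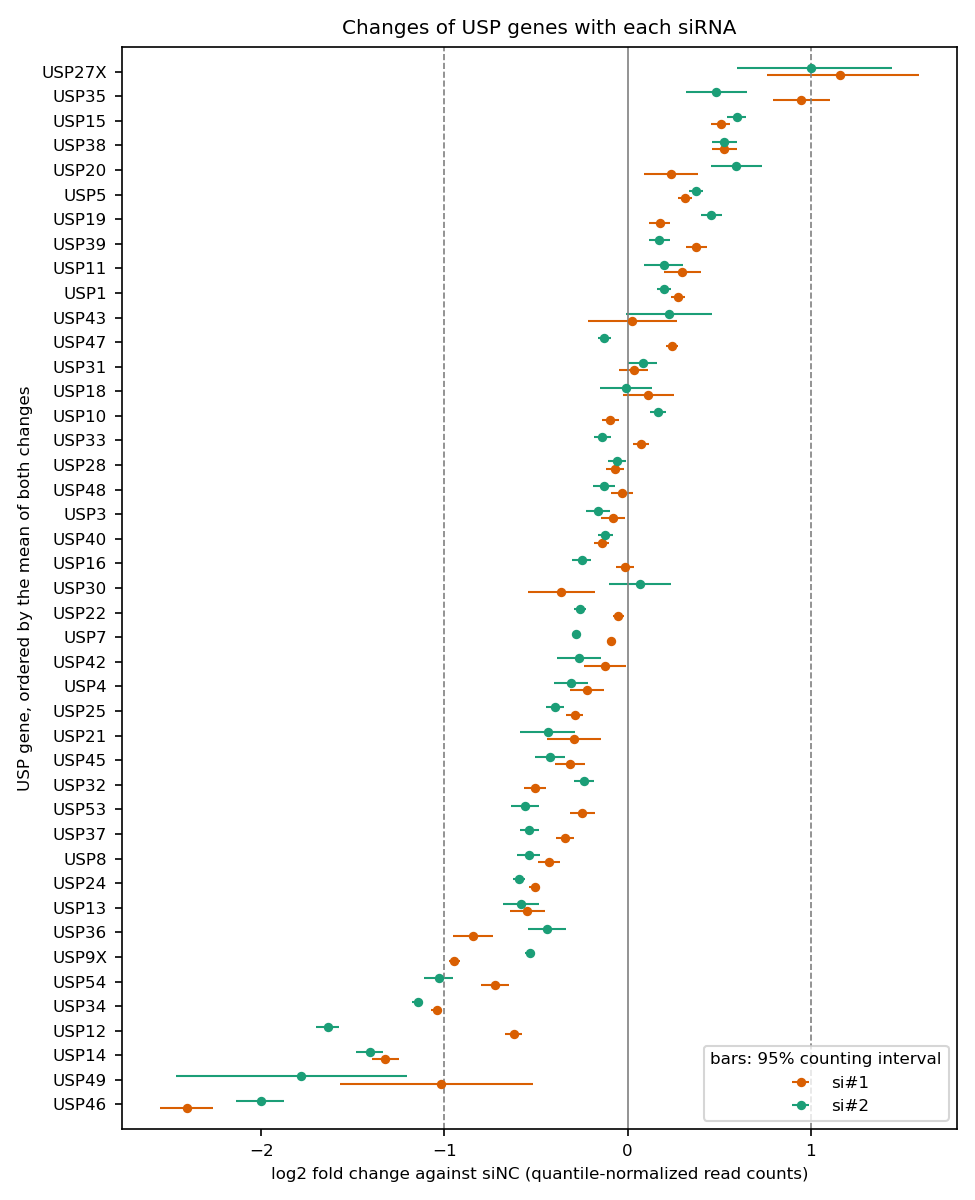
Log2 fold change against siNC (horizontal axis, quantile-normalized read counts) of each USP gene with si#1 and si#2, with bars for the exact 95% counting interval and dashed lines at 2-fold. USP46 lies at -2.40 and -2.003 and USP27X at 1.16 and 1.00, and the 12 genes above siNC with both siRNAs stand against 26 below.

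On quantile-normalized read counts, the largest change was in USP46. USP46 and its close relative USP12 are activated by the same WD40-repeat proteins, WDR48 and WDR20, and are known for acting on the PHLPP phosphatases. USP46 (gene ID 64854, chromosome 4, 52590960 to 52659301, minus strand) had 2379 reads (siNC), 461 (si#1) and 601 (si#2), or 4.94, 0.849 and 1.07 TPM. Both siRNA libraries were far below siNC. The log2 fold change was -2.40 (-2.55 to -2.26) with si#1, 5.29-fold lower, and -2.003 (-2.14 to -1.88) with si#2, 4.01-fold lower. USP46 was lower with si#1 than with si#2 (log2 difference -0.40, interval -0.58 to -0.22).

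USP12 (gene ID 219333, chromosome 13, 27066156 to 27171811, minus strand) had 9242 reads (siNC), 6101 (si#1) and 2913 (si#2), or 34.6, 20.2 and 9.39 TPM. It was below siNC with both siRNAs but passed 2-fold with si#2 alone. Its log2 fold change was -0.62 (-0.67 to -0.57) with si#1 and -1.64 (-1.70 to -1.58) with si#2. Of the 43 USP genes it was the only one to differ 2-fold between si#1 and si#2 (log2 difference 1.02, interval 0.95 to 1.08), 2.33% beside 8.23% of all listed and 4.52% of protein-coding genes. Relative to siNC, USP46 was thus lower than USP12 with each siRNA, by a wide margin with si#1 and a narrow one with si#2. The order with si#2 depended on the unit. On quantile-normalized log2(TPM + 1), USP12 was the lower with si#2 (-1.576, beside -1.355 for USP46). WDR48 and WDR20 were near their siNC levels. WDR48 had 1808, 1909 and 1697 reads (0.02 and -0.10 on the log2 scale) and WDR20 had 1924, 2154 and 1953 (0.12 and 0.02). DMWD, also on the list of USP partners, had 654, 726 and 1056 reads and was higher with si#2 (0.12 and 0.68). Of their reported substrates, PHLPP1, named here after its values were seen, had 378, 187 and 230 reads (-1.07 and -0.79), and PHLPP2 had 5712, 4728 and 3884 (-0.29 and -0.52).

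USP14 and USP34 were 2-fold lower with both siRNAs. USP14 binds the 19S particle of the proteasome and trims ubiquitin from proteins held there. USP14 (gene ID 9097, chromosome 18, 158557 to 214629, plus strand) had 5175 reads (siNC), 2115 (si#1) and 1937 (si#2), or 17.2, 6.23 and 5.55 TPM. Its log2 fold change was -1.32 (-1.40 to -1.25) and -1.41 (-1.48 to -1.33), and the interval of the difference between the siRNAs held 0. The other USPs of this group lay on either side of siNC. USP5 was above siNC with both siRNAs (10461, 13053 and 13135 reads, log2 fold change 0.31 and 0.37), whereas its relative USP13 was below (2083, 1485 and 1406 reads, -0.55 and -0.58).

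USP34, a very large USP that acts on axin in Wnt signaling, heads a group of 6 genes of TGF-beta and Wnt signaling and splicing. USP34 (gene ID 9736, chromosome 2, 61187463 to 61471087, minus strand) had 27297 reads (siNC), 13567 (si#1) and 12172 (si#2), or 38.7, 17.0 and 14.8 TPM. Both siRNA libraries were well below siNC, with si#2 the lower. The log2 fold change was -1.04 (-1.07 to -1.01) and -1.15 (-1.18 to -1.11), just past 2-fold. USP9X, which acts on SMAD4 and MCL1, fell just short of 2-fold with si#1, with 25038, 13306 and 17055 reads and log2 fold changes of -0.95 and -0.53. Over the 6 genes the medians were -0.25 and -0.35, 4 lay below siNC with both siRNAs and 2 above with both. Those above were USP39, a spliceosome protein without protease activity (4589, 6061 and 5123 reads, 0.38 and 0.17), and USP15, which acts on the TGF-beta receptor and SMADs (5124, 7445 and 7584 reads, 0.51 and 0.60). USP25, which acts on tankyrases, was at -0.29 and -0.40, and USP4, a relative of USP15, at -0.22 and -0.31.

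The 6 USPs of histones split, and both that passed 2-fold were the least abundant of all 43. USP27X is a close relative of USP22 that, like it, works on histones with the adaptors ATXN7L3 and ENY2. USP27X (gene ID 389856, chromosome X, 49879484 to 49882558, plus strand) had 71 reads (siNC), 165 (si#1) and 149 (si#2), or 0.379, 0.783 and 0.686 TPM. Its log2 fold change was 1.16 (0.76 to 1.59) and 1.00 (0.60 to 1.44), so the intervals reach well below 2-fold. USP49, which acts on histone H2B (gene ID 25862, chromosome 6, 41789896 to 41895375, minus strand), had 96, 47 and 29 reads, or 0.183, 0.077 and 0.046 TPM. It was at -1.02 (-1.57 to -0.52) and -1.78 (-2.47 to -1.20), the widest intervals among the USP genes called. Levels this low allow no firm statement on either gene. On quantile-normalized log2(TPM + 1), where adding 1 shrinks the change of a gene below 1 TPM, USP27X was at 0.43 and 0.36 and USP49 at -0.10 and -0.14.

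The more abundant histone USPs stayed nearer siNC. USP22 had 16970 reads (siNC), 16513 (si#1) and 13797 (si#2) (-0.05 and -0.26), and USP16, which takes ubiquitin off histone H2A in mitosis, had 6448, 6597 and 5377 (-0.01 and -0.25). USP3 and USP21, which also act on histone H2A, were at -0.08 and -0.16 and at -0.29 and -0.44. All 4 were below siNC with both siRNAs, though the interval of USP16 with si#1 held 0 (-0.06 to 0.04). The adaptor ATXN7, which anchors USP22 to SAGA and is named here after its values were seen, had 1376 reads (siNC), 580 (si#1) and 705 (si#2), with log2 fold changes of -1.30 and -0.99. ATXN7L3 (0.27 and 0.30) and ENY2 (0.31 and 0.26), the other subunits of the module, were above siNC with both.

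USP54 passed 2-fold with si#2 alone. USP54 and USP53 are among 5 genes grouped here as inactive or little studied. USP54 (gene ID 159195, chromosome 10, 73497538 to 73625981, minus strand) had 3849 reads (siNC), 2380 (si#1) and 1861 (si#2), or 10.5, 6.45 and 4.59 TPM. Its log2 fold change was -0.72 (-0.80 to -0.65) with si#1 and -1.03 (-1.11 to -0.95) with si#2, just inside the threshold, and on log2(TPM + 1) that with si#2 was -0.82, short of 2-fold. USP53 had 3574, 3072 and 2405 reads and leaned the same way (-0.25 and -0.56), and USP40 was at -0.14 and -0.12. USP31 and USP43, a further related pair, were at 0.03 and 0.08 and at 0.03 and 0.22.

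No USP of the p53, DNA repair, nucleolus and MYC, endosome and membrane or interferon groups passed 2-fold. Among the 4 that act on p53, USP7 had 34559, 33600 and 27838 reads (-0.09 and -0.28), USP24 had 20647, 14930 and 13438 (-0.51 and -0.59) and USP42 was at -0.12 and -0.26, while USP10 had 8188, 7828 and 8963 and lay on opposite sides of siNC (-0.09 and 0.17). The group's medians were -0.11 and -0.27. Among the 5 of DNA repair, USP1 had 9666, 11958 and 10791 reads (0.28 and 0.20) and USP47, a relative of USP7 that acts on DNA polymerase beta, had 13460, 16054 and 11952 (0.24 and -0.13). USP11, which works in BRCA2-linked repair, was at 0.30 and 0.20, USP45 at -0.31 and -0.42 and USP48 at -0.03 and -0.13. The group was divided, with 2 genes below siNC with both siRNAs, 2 above with both and 1 on opposite sides. Of those below, USP48 had an interval with si#1 that held 0 (-0.09 to 0.03).

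The 3 USPs linked to the nucleolus and MYC were all below siNC with both siRNAs. USP36, a nucleolar enzyme that stabilizes MYC, had 1810 reads (siNC), 1036 (si#1) and 1343 (si#2) (-0.84 and -0.44), short of 2-fold. USP37, which acts on cyclin A, had 7413, 5970 and 5056 (-0.34 and -0.54), and USP28, which counters the ligase FBXW7 on MYC, had 6868, 6778 and 6502 (-0.07 and -0.06). MYC itself was at -0.25 and 0.29. USP18, which removes the ubiquitin-like protein ISG15 and is induced by interferon, had 822, 909 and 822 reads (0.11 and -0.01), and both intervals held 0.

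The 8 USPs of endosomes and membranes had medians of 0.12 and 0.26, with 4 genes above siNC with both siRNAs, 2 below with both and 2 on opposite sides. USP33, which binds VHL, had 8530 reads (siNC), 9126 (si#1) and 7557 (si#2) (0.07 and -0.14), and USP19, anchored in the endoplasmic reticulum, had 4419, 5023 and 5917 (0.18 and 0.46). USP35 fell just short of 2-fold higher with si#1, with 517, 1027 and 735 reads and log2 fold changes of 0.95 and 0.49. Its relative USP38 had 2976, 4400 and 4206 reads (0.53 with each siRNA), and USP20, the relative of USP33, had 702, 844 and 1068 (0.24 and 0.59). The genes below siNC with both were USP8, which acts on the endosomal sorting of receptors such as EGFR (5239, 3949 and 3532 reads, -0.43 and -0.54), and USP32, which acts on late endosomes (5708, 4070 and 4733 reads, -0.50 and -0.24). USP30, which opposes parkin at the outer mitochondrial membrane, was at -0.36 and 0.07. EGFR, named after its values were seen, had 48205, 18560 and 27887 reads (-1.44 and -0.78). It was the lowest with si#1 on a list of 18 known substrates of USPs. That list ran from -1.44 to 0.57 with si#1 and from -0.89 to 0.75 with si#2, with medians of -0.11 and -0.28.

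The other deubiquitinase families gave a reference for the USP counts. Of 40 deubiquitinases outside the USP gene names (CYLD, USPL1, PAN2 and the UCH, OTU, Josephin, JAMM, MINDY and ZUP1 families), 36 were listed, and none passed 2-fold with si#1 or with both siRNAs. With si#2, 3 were 2-fold lower, named here after their values were seen, beside the 7.17% of all listed and 5.16% of protein-coding genes. OTUD4 had 9410, 5750 and 2770 reads (-0.72 and -1.74), MYSM1, which acts on histone H2A, had 3195, 1726 and 1578 (-0.94 and -1.01), and STAMBP, an endosomal enzyme, had 6152, 4670 and 2953 (-0.43 and -1.04). Like USP12, OTUD4 had a lower level with si#2 than with si#1. Their medians were -0.00 and -0.08, above those of the USP genes, and the difference between the lists was not tested. A list of 13 USP partners also held PHLPP1 and PHLPP2, given above as substrates. Of these 13, 2 were 2-fold lower with si#1 (ATXN7 and PHLPP1) and none with both. On a separate list of 18 known substrates, 1 was 2-fold lower with si#1 (EGFR) and none with both. The shares 2-fold lower with si#1 were 6.8% of all listed and 4.38% of protein-coding genes. These lists are too short for their counts to be read against those shares.

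The USP genes have long transcripts, and protein-coding genes with longer transcripts had lower values in both siRNA libraries. The median length of the MANE Select transcript was 5189 nt for the 43 USP genes (1858 to 18865) and 3288 nt for the 12240 protein-coding genes with a value, and the median G and C content was 44.1% against 48.6%. Across the 43 genes, length and log2 fold change had a Spearman's rho of -0.46 with si#1 and -0.45 with si#2, and across protein-coding genes -0.34 and -0.36. G and C content gave 0.30 and 0.40 across the USP genes and 0.35 and 0.50 across protein-coding genes. These are descriptions across genes, which are not independent and share the same 3 libraries. When protein-coding genes averaging 100 reads or more were cut by length into 4 bins of equal size, 21 USP genes fell in the longest bin (over 5215.5 nt), 14 in the next longest, 7 in the one after and 1 in the shortest. In the longest bin the USP medians were -0.34 and -0.44, beside -0.21 and -0.26 for all 2715 genes there. There, 3 of 21 USP genes (14.3%; USP46, USP34 and USP49, the last below that mean) were 2-fold lower with both siRNAs, beside 148 of 2715 (5.45%). In the next longest bin 1 of 14 was (7.14%, USP14), beside 41 of 2714 (1.51%). The part of length or G and C content in the USP changes was not tested.

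**Figure D3:**
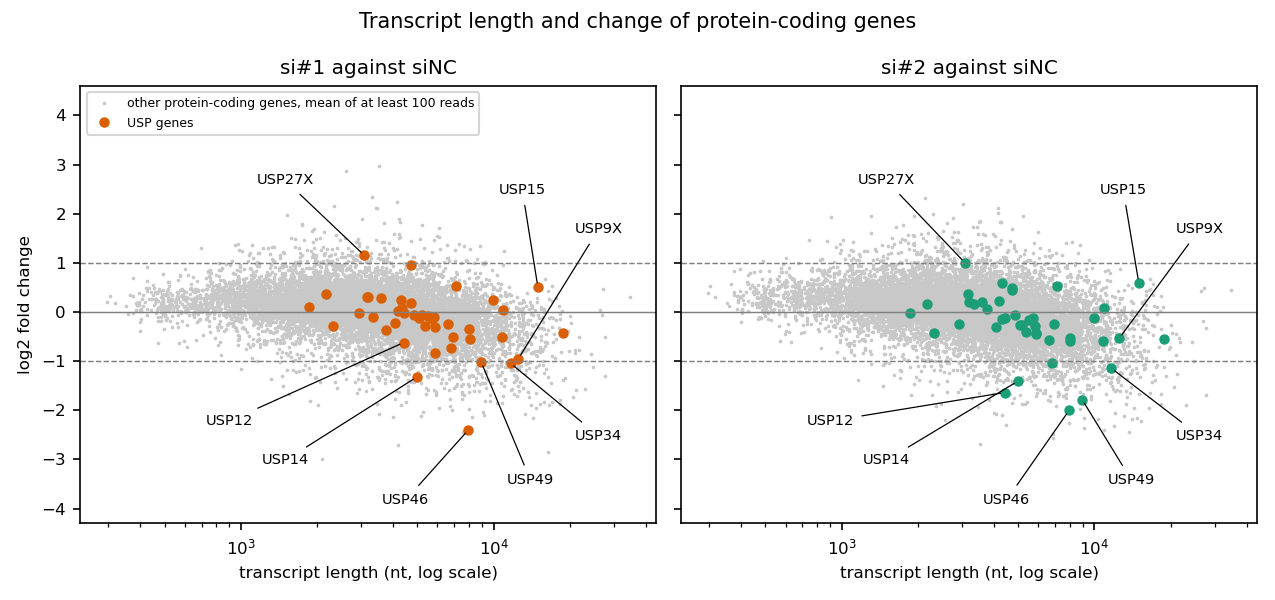
Log2 fold change against siNC (vertical axis) by length of the MANE Select transcript (horizontal log axis, nt) with si#1 (left) and si#2 (right), for the 43 USP genes (large points) and other protein-coding genes averaging 100 reads or more (grey), with dashed lines at 2-fold. The cloud slopes downward to the right (rho -0.39 and -0.41 over protein-coding genes averaging 100 reads or more), and USP46 lies at its lower edge while USP15, at 14971 nt, lies above 0 with both siRNAs.

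The deposited reads and TPM of a gene can differ in their change from siNC, so their ratio was compared between libraries. The number of reads per TPM was 1.13 times that of siNC with si#1 and 1.16 times with si#2 in the median gene, over 12106 genes averaging 100 reads or more. Relative to that median, a shift of at least 0.2 on the log2 scale was seen in 202 genes (1.67%) with si#1 and 183 (1.51%) with si#2. Of 42 USP genes, 1 shifted this far with each siRNA, and it was USP15 both times. USP15 had 723 reads per TPM in siNC, 948 with si#1 and 1006 with si#2, a shift of 0.22 and 0.26. Its reads were above siNC by 0.51 and 0.60 on the log2 scale, its level was 7.09, 7.85 and 7.54 TPM, and on quantile-normalized log2(TPM + 1) it was above siNC by 0.27 and 0.30. USP15 has a transcript of 14971 nt, of which 12014 nt are 3′ UTR, and no measurement of isoforms was made here. USP54 shifted the other way with si#1 (-0.16, and -0.07 with si#2), and USP38 by 0.07 with both. USP46, USP12, USP14 and USP34 each shifted by 0.00 with both siRNAs.

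**Figure D4:**
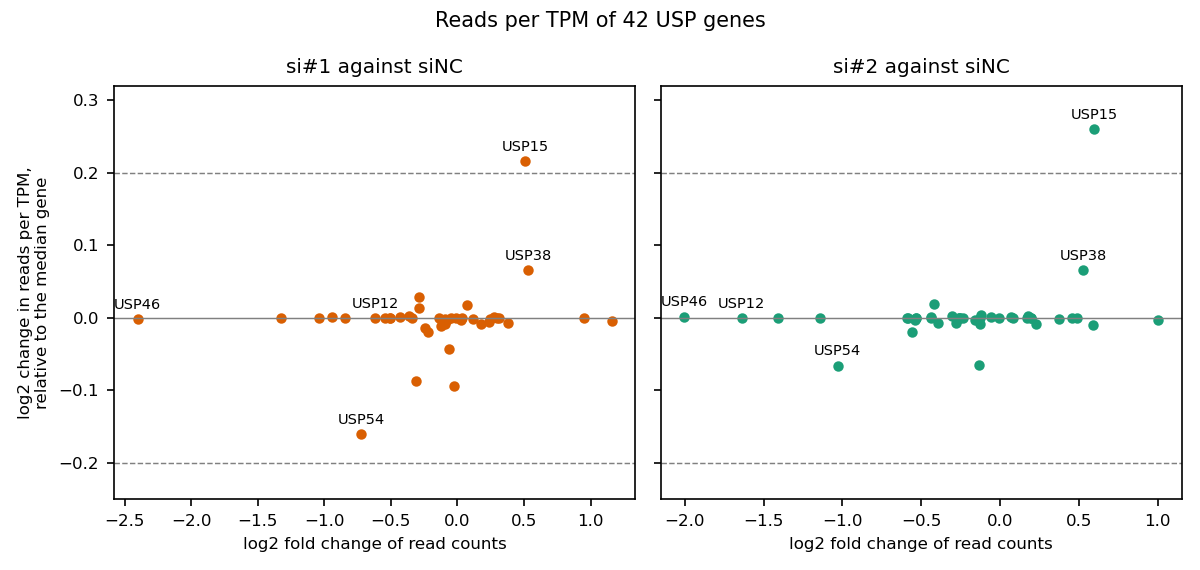
Shift in reads per TPM relative to the median gene (vertical axis, log2) against the log2 fold change of read counts (horizontal axis) for the 42 USP genes averaging 100 reads or more, with si#1 (left) and si#2 (right) and dashed lines at 0.2 either way. USP15 lies above the line with both siRNAs (0.22 and 0.26), and USP46 and USP12 lie at 0.

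The USP pseudogenes, USP antisense RNAs and USP17-like genes, outside the rule, carried few reads. USP32P4, a pseudogene of USP32, had the most of them, with 112, 119 and 94 reads, more in siNC than USP27X or USP49. USP32P3 had 8, 6 and 3 reads, USP12PX, a pseudogene of USP12, had 9, 1 and 5, and USP10P2 had 4, 1 and 4. How reads shared between these copies and their parent genes were assigned is not known, and their part in the values of USP32, USP12 and USP10 was not tested. USP46-AS1, which starts beyond the 5′ end of USP46, had 67 reads (siNC), 76 (si#1) and 37 (si#2) (0.17 and -0.87), and USP27X-AS1 had 60, 64 and 64 (0.09 and 0.06), so neither followed its neighbour with both siRNAs. USP3-AS1 had 55, 13 and 48 reads (-1.92 and -0.21). The USP17-like genes USP17L11, USP17L12 and USP17L13, nearly identical copies, had 1 to 3 reads in each library and cannot be told apart. The library kit marks strand, but the sources used here do not give whether the counting used it.

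Both siRNA libraries were also pooled against siNC. Such a fit takes different siRNAs as replicates and has no measure of the spread of the control, so its p-values rest on an assumption that these libraries cannot check, and its counts depended on the tool. With edgeR's quasi-likelihood test, 0 of the 16463 genes and so 0 USP genes had an adjusted p under 0.05, and 2958 genes (18%) and 12 USP genes had an unadjusted p under 0.05. With DESeq2's Wald test, 1185 of 12313 genes with an adjusted p (9.62%) had one under 0.05, 783 of them lower (6.36%). This held for 6 USP genes (USP46, USP14, USP34, USP54, USP9X and USP24), each lower, and USP49 had no adjusted p. These counts are given as a description and support no call above.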

How the data were processed

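Libraries were made from total RNA of AsPC-1 with a strand-marking kit after ribosomal RNA depletion and sequenced as paired reads. Per the paper's methods and the labels, the authors' alignment to GRCh38 used HISAT2 and StringTie assembled the known genes (the sources used here give no versions). The deposited read counts and the deposited TPM are the authors' own for 16463 genes, each with a read in all 3 libraries, and columns headed FPKM hold the read counts. The authors also deposited log2 values, that is log2(read count + 1) after quantile normalization. The same normalization of the read counts, computed here, differed from them by at most 5e-09. Columns of the authors' fold changes and volumes were not used, nor were 3 columns of means and the 15 per-sample columns of a second sheet.

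USP genes were called at 2-fold (log2 fold change of at least 1, pseudocount 1). For each ratio of 2 counts, a 95% interval was taken by the exact Clopper-Pearson method and scaled by the normalization. Reads carried no molecular identifiers, so intervals cover counting error only. Gene positions were taken from RefSeq (GRCh38.p14; 43 of 43 USP genes matched on gene ID), promoter sequences from RefSeq, and transcript length and G and C content from GENCODE MANE Select transcripts. Pooled fits were made with the quasi-likelihood test of edgeR (4.0.16) and the Wald test of DESeq2 (1.42.0) in R 4.3.3, with p-values adjusted by Benjamini-Hochberg over all genes (edgeR) or over the 12313 genes to which DESeq2 gave an adjusted p. The code was tested on simulated data.

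USP genes past 2-fold with at least 1 siRNA, the 5 of highest TPM in siNC, their close paralogs and the 1 or 2 of highest mean read count in each role group were named by rule, the rest to account for every gene. Genes outside the USP family, LINC00941 and the cell type markers apart, were named after their values were seen. The members, roles and lists were chosen with earlier results of these data known. The result of 1 list is not reported here. Alternatives were quantile-normalized log2(TPM + 1), TMM, DESeq2 size factors, total read count, a pseudocount of 10, a mean of at least 10 or 100 reads, protein-coding genes alone and a 1.5-fold threshold. Other steps ran in Python 3.11.15 (scipy 1.17.1, pandas 2.3.3, numpy 2.4.6, matplotlib 3.10.9).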

Additional observations from a re-analysis of the deposited data

Results flagged for a closer look

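The siRNAs placed 3 USP genes on opposite sides of siNC with both counting intervals leaving out 0. USP10 had a log2 fold change of -0.09 with si#1 and 0.17 with si#2, USP33 of 0.07 and -0.14, and USP47 of 0.24 and -0.13. None passed 1.5-fold, and with 1 library per condition the difference between the siRNAs was not tested.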

How the results depend on the processing

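USP46, USP14 and USP34 were 2-fold lower with both siRNAs, and USP12 with si#2, under all 8 alternative units, scalings, pseudocounts and gene filters. No scaling, pseudocount or filter changed the sign of a USP gene, except that on log2(TPM + 1) USP48 with si#1 and USP18 with si#2, both near 0, changed sign. The number below siNC with both siRNAs, 26 as reported, was 25 or 26, and the number above ran from 11 to 13. The number of USP genes 2-fold higher with both siRNAs, 1 as reported (USP27X), was 0 on log2(TPM + 1), with a pseudocount of 10, with a mean of at least 100 reads and among protein-coding genes alone. On log2(TPM + 1), the genes past 2-fold numbered 3 with si#1 (5 as reported) and 4 with si#2 (7 as reported), and the median with si#2 was -0.16 (-0.24 as reported). The cause was not tested. With a 1.5-fold threshold, 10 passed with si#1. The count lower with both, 4 as reported, ran from 3 to 6. In the pooled fits, DESeq2 called 6 USP genes and edgeR 0, for which the cause was not tested either. Depth limits USP27X and USP49 most. No paired analysis was possible because each condition had 1 library, and for the same reason no library could be left out.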
